A study of Mus musculus with 20 samples.

Results

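The miR-101 family was followed in small RNA libraries from the livers of mice of 2 genotypes. Its rows were found by name, as every row of miR-101a, miR-101b or miR-101c with any arm suffix or none, and 5 were found among the 880 miRNAs listed in every file: mmu-miR-101a-3p, mmu-miR-101b-3p, mmu-miR-101c, mmu-miR-101a-5p and mmu-miR-101b-5p, given below without the species prefix. No joined name held a member. The libraries come from 5 PiZ mice, whose transgene encodes the Z form of the human protein alpha-1 antitrypsin, and from 5 wild-type (WT) mice. All 10 were C57BL/6 mice aged 6 weeks, and the labels do not give their sex. The Z protein is a secreted protease inhibitor that misfolds and is retained in hepatocytes. Each liver gave 1 library that was sequenced in 2 technical runs, and the runs were summed, so the mouse is the replicate. The mRNA of the transgene is not measured in small RNA libraries, so genotype rests on the labels.

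A miRNA pairs through its seed, the bases just after its 5′ end, with sites in mRNAs and lowers their stability and translation. Members of the miR-101 family are known for repressing EZH2, the histone methyltransferase of the Polycomb repressive complex, and in human liver cancer miR-101 is known to be low. Each hairpin gives a 3p arm, which is the usual guide strand in this family, and a 5p arm, which is mostly degraded.

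The mature sequences are shown because members differ by so few bases that the counting of their reads bears on every value given for them. They are from RefSeq, build GRCm38.p6, with bases 2 to 8 in capitals.
miR-101a-3p: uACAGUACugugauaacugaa
miR-101b-3p: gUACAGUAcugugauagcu
miR-101c: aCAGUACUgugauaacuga
miR-101a-5p: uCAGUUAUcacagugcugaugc
miR-101b-5p: uCGGUUAUcaugguaccgaugcu
In capitals below is the stretch ACAGUAC, which the 3p members share, aligned by content and not by 5′ end.
miR-101a-3p core: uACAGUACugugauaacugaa
miR-101b-3p core: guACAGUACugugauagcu
miR-101c core: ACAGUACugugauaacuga
This stretch starts at position 2 of miR-101a-3p, position 3 of miR-101b-3p and position 1 of miR-101c, counted from each 5′ end. As annotated, the seeds are therefore offset by 1 base in opposite directions from that of miR-101a-3p. Over the 18 bases that can be compared, miR-101b-3p differs from miR-101a-3p by a single substitution, A16G, numbered from the 5′ end of miR-101a-3p. The sequence of miR-101c is identical to bases 2 to 20 of miR-101a-3p, so a read trimmed to those bases matches both names.

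The hairpins are shown to place the arms, which are in capitals.
Mir101a: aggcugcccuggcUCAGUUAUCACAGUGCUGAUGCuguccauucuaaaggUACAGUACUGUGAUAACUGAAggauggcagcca
Mir101b: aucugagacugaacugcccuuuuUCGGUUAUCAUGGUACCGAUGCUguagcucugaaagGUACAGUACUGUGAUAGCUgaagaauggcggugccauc
Mir101a lies at chr4:101346945-101347027 on the minus strand, within an exon of the lincRNA E130102H24Rik on the same strand in the GENCODE M21 annotation. Mir101b lies at chr19:29135279-29135375 on the plus strand, inside the protein-coding gene Rcl1, where no exon of Rcl1 overlaps it. The mature miR-101c is annotated at chr9:3038680-3038698 on the minus strand, in no other gene. The base before miR-101a-3p in its own hairpin is also G, and the hairpins share the 20-base stretch aaagguacaguacugugaua, so a read starting at that G matches both hairpins until they part at the substitution.

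The deposited estimated counts show that the rows of miR-101a-3p and miR-101b-3p are not separate measurements. A fraction of 0.5 stood in the miR-101a-3p count of 12 of the 20 files and in the miR-101b-3p count of 12. In 20 of 20 files both rows were either whole or carried the same fraction, while miR-101c and the 5p rows were whole in every file. No source used here says how reads that match several names were divided. The level of miR-101b-3p is therefore uncertain. That of miR-101c is uncertain because its sequence lies inside miR-101a-3p, although its counts show no fraction. The summed family is given beside each member.

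Libraries held 2433273 to 10780801 reads in PiZ mice and 1307857 to 10012788 reads in WT mice. The files came with 2 lists of miRNAs, a longer one of 1399 (PiZ mice 1 and 2, WT mice 1 to 3) and a shorter one of 990 (PiZ mice 3 to 5, WT mice 4 and 5), and the list was a term in the model. Longer-list libraries held 1307857 to 2507519 reads and shorter-list libraries 7043905 to 10780801, so list and depth cannot be told apart. WT mice 1 and 3 are the shallowest libraries and stood at 10.8 and 8.05 on the second principal component of log2 levels, against -6.66 to 4.18 in PiZ mice and -7.42 to -5.61 in the other WT mice. On the first component they stood at 16.6 and 14.8, against 6.18 to 9.47 in the other WT mice. PiZ mouse 5 stood there at 3.54, nearer to the WT mice than to the -18.9 to -11.5 of the other PiZ mice. The first component held 61.9% of the variance and the second 15.6%. Results are given with and without WT mice 1 and 3, since the family was low in both.

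The family was almost wholly 1 miRNA. Of 76117 family reads, 74598 (98.0%) were miR-101a-3p, 545 (0.716%) miR-101b-3p, 512 (0.673%) miR-101c, 412 (0.541%) miR-101a-5p and 50 (0.0657%) miR-101b-5p. By abundance among all miRNAs, miR-101a-3p ranked 33rd to 45th in PiZ livers and 33rd to 77th in WT livers. miR-101b-3p ranked between 195 and 253 in PiZ livers and between 180 and 281 in WT livers.

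miR-101a-3p stood at 1365, 1570, 980.0, 1094 and 1991 CPM (reads per 1000000 reads, scaled by TMM) in PiZ mice 1 to 5, against 354, 1624, 252, 1635 and 1489 CPM in WT mice 1 to 5. PiZ mouse 5 was the highest library and WT mice 1 and 3 the lowest, and the other 7 mice overlapped between 980.0 and 1635 CPM. PiZ livers averaged 1400.2 ± 403 CPM and WT livers 1070.8 ± 704 CPM (SD, n = 5 each), so the genotypes differed by less than the SD of either. The highest library was 7.91 times the lowest. Both runs of a library gave nearly the same level, with log2 ratios of run 2 to run 1 from -0.03 to 0.15. The largest of these was in WT mouse 3, which held 283 and 314 reads per 1000000 in its runs, so the low WT libraries were low in each run.

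The paralog miR-101b-3p was at a far lower level. It stood at 8.60, 13.4, 7.71, 7.19 and 13.2 CPM in PiZ mice 1 to 5, against 4.97, 16.7, 2.80, 10.6 and 11.8 CPM in WT mice 1 to 5. WT mice 1 and 3 were again the lowest, WT mouse 2 was the highest, and the PiZ values fell inside the WT range. The means were 10.02 ± 3.03 CPM in PiZ and 9.39 ± 5.57 CPM in WT livers (SD, n = 5 each). In WT mouse 3, 2.80 CPM rests on 4.5 estimated reads rounded up to 5, so this row carries little precision there. In WT mouse 1, 4.97 CPM likewise rests on 6.5 estimated reads rounded up to 7.

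miR-101c, whose letters lie inside miR-101a-3p, stood at 7.78, 6.31, 4.71, 6.48 and 16.5 CPM in PiZ mice 1 to 5, against 3.55, 14.6, 2.24, 10.3 and 12.4 CPM in WT mice 1 to 5. PiZ mouse 5 was highest and WT mice 1 and 3 were lowest, as for miR-101a-3p. The 5p arm of miR-101a was at 7.78, 9.46, 4.71, 6.39 and 10.2 CPM in PiZ mice 1 to 5, against 6.39, 10.96, 4.48, 6.82 and 8.91 CPM in WT mice 1 to 5. Here WT mouse 1 lay inside the PiZ range and WT mouse 3 just below it, and the highest library was 2.45 times the lowest.

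miR-101b-5p was near the limit of detection. It stood at 1.64, 0, 0.601, 0.799 and 1.44 CPM in PiZ mice 1 to 5, against 0, 0.522, 0.560, 0.758 and 1.30 CPM in WT mice 1 to 5. The 0 reads in PiZ mouse 2 allow up to 1.20 reads per 1000000 (3 reads of its total), and those in WT mouse 1 allow up to 2.29. Such limits cover counting error only.

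**Figure D1:**
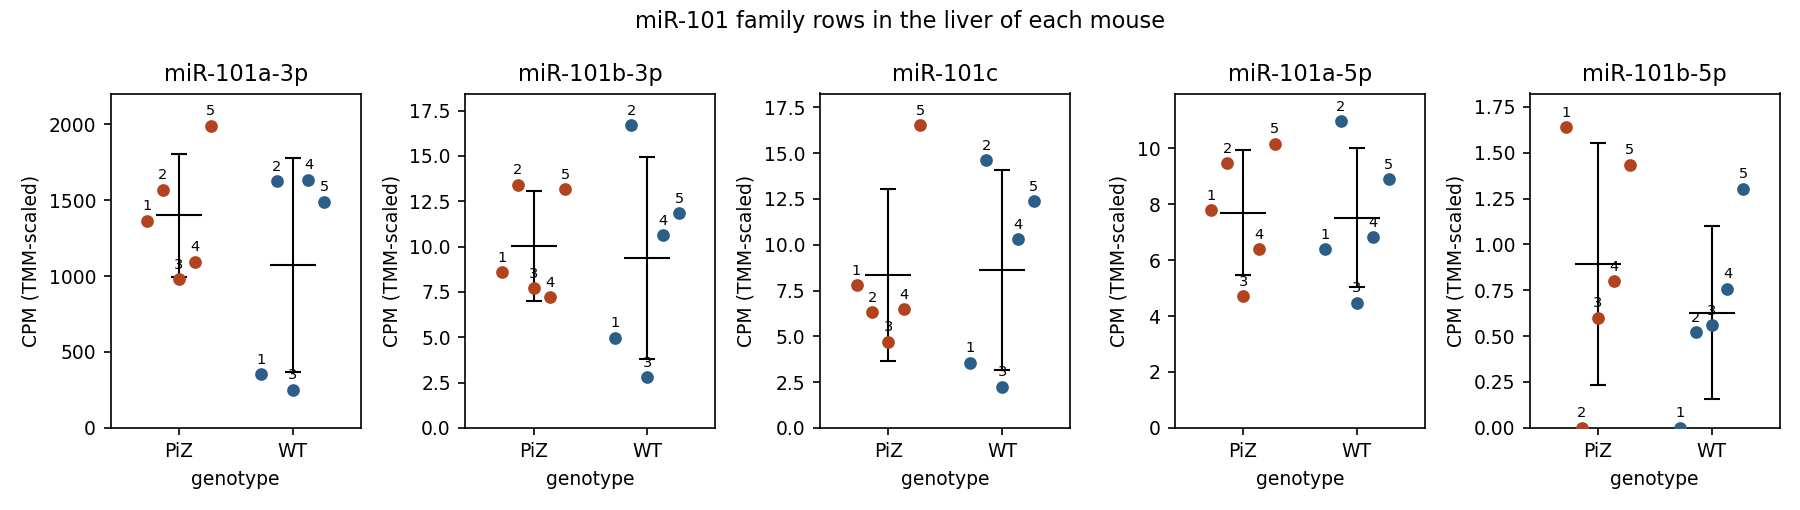
Level of each miR-101 row in CPM (vertical axes, each starting at 0, with its own scale) by genotype, 1 point per mouse with its number, and the mean ± SD of 5 mice. PiZ and WT mice overlap in every panel, and WT mice 1 and 3 lie lowest for miR-101a-3p (354 and 252), miR-101b-3p and miR-101c, but not apart from the others for miR-101a-5p.

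The first comparison asked whether the family differs between PiZ and WT liver. No member passed the test. miR-101a-3p had a log2 fold change (PiZ over WT) of 0.39 with an SE of 0.48 and a 95% interval of -0.68 to 1.45 (adjusted p = 0.679, edgeR quasi-likelihood test), and 1 of 5 PiZ mice was above all WT mice. For miR-101b-3p the log2 fold change was 0.04, SE 0.43 (interval -0.90 to 0.98; adjusted p = 0.971, edgeR), and it was -0.13 with upper-quartile scaling. miR-101c gave -0.16, SE 0.50 (interval -1.25 to 0.93; adjusted p = 0.889, edgeR). The 5p arm of miR-101a gave 0.02, SE 0.32 (interval -0.69 to 0.73; adjusted p = 0.975, edgeR), and turned to -0.02 with DESeq2 size factors and -0.14 with upper-quartile scaling. miR-101b-5p was under the filter on low counts and was not tested. The summed family gave 0.38, SE 0.48 (interval -0.68 to 1.44, adjusted p = 0.677, edgeR). If each read was counted once, this sum does not depend on how reads were split among the names, and 98.0% of it is miR-101a-3p. A log2 fold change of 1 lies inside the interval of miR-101a-3p, so the lack of a call does not show equal levels.

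Thus 0 of the 4 tested members were called, where 31 of 336 tested miRNAs (9.23%) passed an adjusted p of 0.05 in edgeR, 28 (8.33%) higher and 3 (0.893%) lower in PiZ. At an unadjusted p under 0.05, 0 of the 4 passed, against 83 of 336 (24.7%). The PiZ and WT mice overlapped for 4 of 4 tested members, while they did not for 30 of the 336 (8.93%). DESeq2 and limma-voom called no member either. Upper-quartile scaling moved the median log2 fold change of all tested miRNAs by -0.16 and gave 22 higher and 6 lower calls.

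The sign of the fold change turned on WT mice 1 and 3 for the summed family and every tested row but miR-101c, which was negative with all mice too. Without them miR-101a-3p had a log2 fold change of -0.24, SE 0.21 (interval -0.73 to 0.25; adjusted p = 0.516, edgeR), and miR-101b-3p had one of -0.43, SE 0.26 (adjusted p = 0.320). miR-101c was at -0.62, SE 0.40 (adjusted p = 0.372, edgeR), miR-101a-5p at -0.27, SE 0.27 (adjusted p = 0.551) and the summed family at -0.25 (adjusted p = 0.506). None passed. Leaving out the WT mice in which the family was lowest lowers PiZ over WT by construction, so these lower values are no sign of a difference. In that fit edgeR called 0 of 410 miRNAs, and 104 (25.4%) had an unadjusted p under 0.05, none of them a member. Leaving out PiZ mouse 2 alone took the log2 fold change of miR-101a-3p to -0.01. Leaving out PiZ mouse 1, WT mouse 1 or WT mouse 3 alone took it to 0.04, 0.10 and 0.08.

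Within the file sets the direction differed. Among the longer-list files (2 PiZ and 3 WT mice) the log2 fold change was 1.02 for miR-101a-3p, 0.43 for miR-101b-3p, 0.24 for miR-101a-5p and 0.04 for miR-101c. Among the shorter-list files (3 PiZ and 2 WT mice) these were -0.25, -0.31, -0.20 and -0.36 for the same miRNAs, and miR-101b-5p, which passed the filter there, was at -0.20 (adjusted p = 0.857, edgeR). Both low WT libraries are longer-list files, and every longer-list library is shallower than every shorter-list library. The difference of the genotype effects, shorter minus longer, was -1.23, SE 0.96 for miR-101a-3p (adjusted p = 0.882, edgeR) and -0.72, SE 0.89 for miR-101b-3p (adjusted p = 0.894). Of 372 miRNAs, 0 passed this test and 16 (4.3%) had an unadjusted p under 0.05. Without WT mouse 2, which leaves WT mice 1 and 3 as the WT mice of the longer list, the difference for miR-101a-3p was -2.59 (adjusted p = 0.0278, edgeR), one of 15 calls among 407, and that for miR-101b-3p was -1.88 (adjusted p = 0.129).

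**Figure D2:**
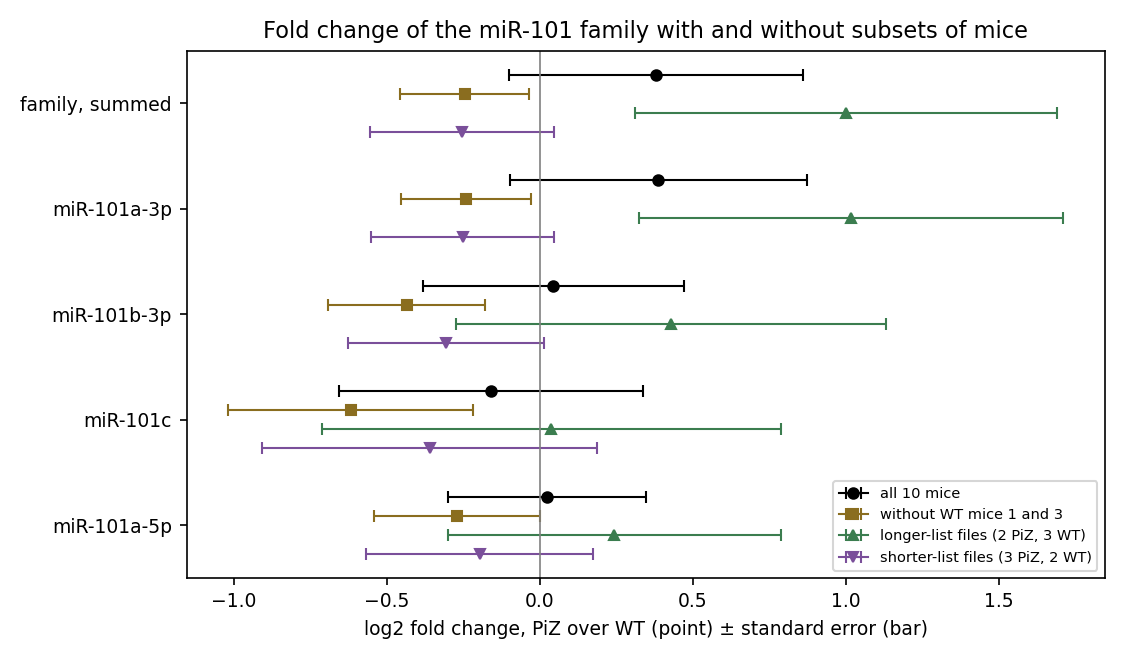
Log2 fold change of PiZ over WT (horizontal axis, points) ± standard error (bars) for the summed family and its 4 tested rows, from fits on all 10 mice, on 8 mice without WT mice 1 and 3, and on each file set alone. miR-101a-3p lies at 0.39 with all mice, -0.24 without WT mice 1 and 3, 1.02 in the longer-list files and -0.25 in the shorter-list files.

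As a share of all reads, which needs no scaling between libraries, the family took 0.140, 0.162, 0.108, 0.116 and 0.174% in PiZ mice 1 to 5, against 0.0397, 0.156, 0.0306, 0.156 and 0.140% in WT mice 1 to 5. Shares in WT mice 1 and 3 were the lowest, and the other WT shares lay inside the PiZ range. The means were 0.140% ± 0.0282 in PiZ and 0.104% ± 0.0637 in WT livers (SD, n = 5 each), so PiZ exceeded WT by 0.0354 percentage points (p = 0.325 in an exact permutation test, two-sided; the smallest possible is 0.00794). The difference was -0.0108 points without WT mice 1 and 3 (exact permutation p = 0.571). It was 0.0751 points in the longer-list files (exact p = 0.4) and -0.0151 points in the shorter-list files (exact p = 0.6). With 2 mice against 3, the smallest possible p of this two-sided exact test is 0.2. In whole liver, fewer cells of a type and less RNA per cell cannot be told apart.

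The balance between the paralogs was then compared. miR-101b-3p made up 0.626, 0.847, 0.781, 0.653 and 0.657% of the reads of the 3p rows of miR-101a and miR-101b in PiZ mice 1 to 5, against 1.29, 1.02, 0.993, 0.645 and 0.789% in WT mice 1 to 5. WT mice 1 to 3 were above all PiZ mice, WT mouse 5 lay inside the PiZ range, and the groups overlapped. The mean was 0.713% ± 0.0959 in PiZ and 0.947% ± 0.244 in WT livers (SD, n = 5 each), and PiZ minus WT came to -0.234 percentage points (p = 0.0952 in an exact permutation test, two-sided), which did not pass. In WT mice 1 and 3, with 7 and 5 reads of miR-101b-3p after rounding, the Wilson 95% intervals were 0.673 to 2.83% and 0.472 to 2.56%. The difference was -0.363 points in the longer-list files (exact p = 0.2, the smallest possible for 2 PiZ and 3 WT mice). It was -0.0200 points in the shorter-list files (exact p = 1.0). It was -0.105 points without WT mice 1 and 3 (exact p = 0.429).

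miR-101c took 0.559, 0.394, 0.472, 0.582 and 0.813% of family reads in PiZ mice 1 to 5, against 0.963, 0.877, 0.858, 0.620 and 0.813% in WT mice 1 to 5. All WT shares were above those of PiZ mice 1 to 4, and PiZ mouse 5 lay at the level of WT mouse 5. This share was not tested, because the row lies inside miR-101a-3p and its reads depend on the counting.

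The arms of miR-101a were compared next. There were 175, 166, 208, 171 and 196 reads of miR-101a-3p per read of miR-101a-5p in PiZ mice 1 to 5, against 55.4, 148, 56.1, 239.6 and 167 in WT mice 1 to 5. WT mice 1 and 3 had the lowest ratios and WT mouse 4 the highest, on 9, 8 and 45 reads of the 5p arm. The log2 ratio of 3p to 5p differed by 0.55 between PiZ and WT, SE 0.36, with a 95% interval of -0.24 to 1.34 (adjusted p = 0.572, limma). This did not pass, nor did any of the 64 hairpins tested, of which 2 (3.12%) had an unadjusted p under 0.05. Without WT mice 1 and 3 the difference was 0.03 (adjusted p = 0.927, limma). The arms of miR-101b held too few reads for the test.

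**Figure D3:**
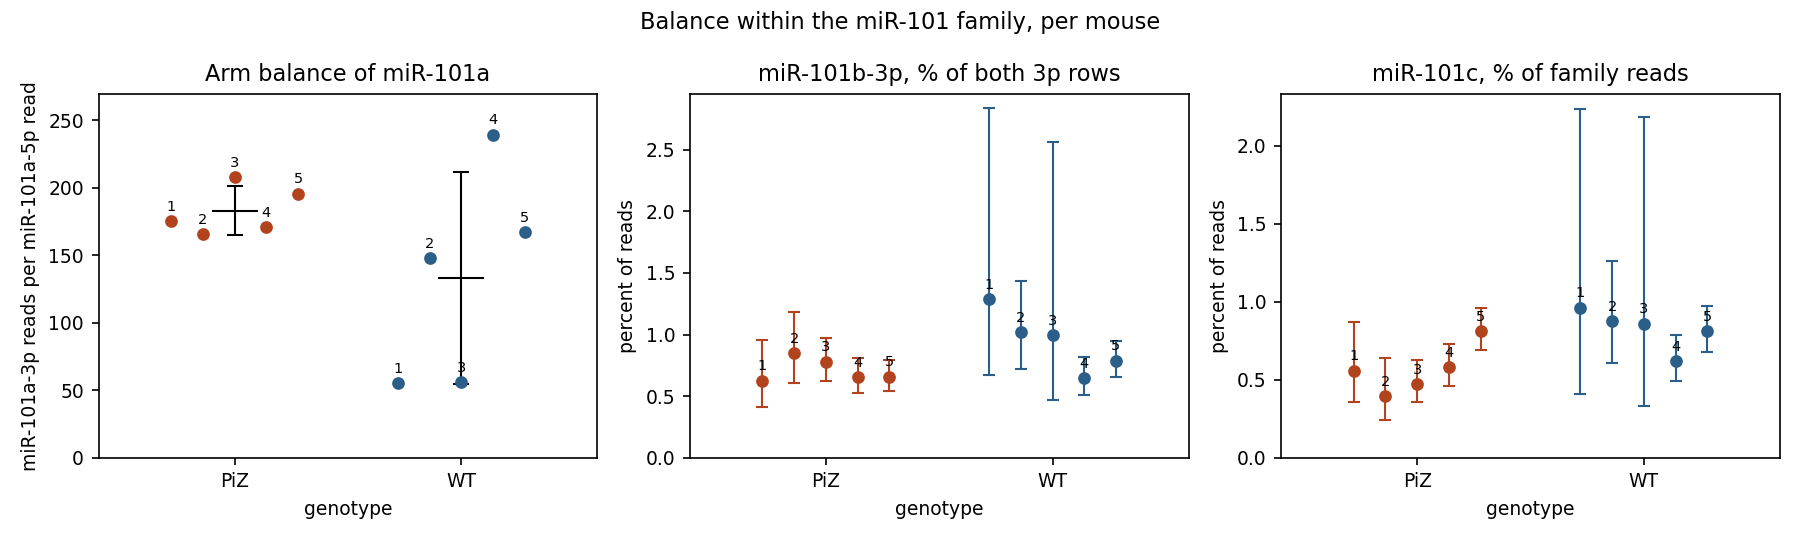
Per mouse, by genotype: reads of miR-101a-3p per read of miR-101a-5p with the mean ± SD of 5 mice (left), miR-101b-3p as a percent of both 3p rows (middle) and miR-101c as a percent of family reads (right), with Wilson 95% intervals on whole reads in the middle and right panels. WT mice 1 and 3 have 55.4 and 56.1 reads of the 3p arm per 5p read, against 166 to 208 in PiZ mice, and the widest intervals.

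Across mice, miR-101a-3p and miR-101b-3p varied together, although Mir101a and Mir101b are on different chromosomes. Over 10 mice, log2 CPM gave Pearson's r = 0.94 (permutation p = 1.3e-04) and Spearman's rho = 0.85 (permutation p = 0.00295), with 1 relation tested. Without the 2 mice farthest from the median of miR-101a-3p, which are WT mice 1 and 3, r was 0.81 (permutation p = 0.0137) and rho 0.71 (permutation p = 0.0580, over 8 mice). The points share library, depth and the fractional reads described above, and the part of the counting in the relation was not tested. A high r was not particular to the paralogs, since miR-21c, from outside the family, had r = 0.98 with miR-101a-3p and 0.95 with miR-101b-3p.

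The miRNAs most like miR-101a-3p among 332 others over the 10 mice were miR-21c (r = 0.98), the joined row of let-7a-1-3p and let-7c-2-3p (r = 0.97), miR-21b (r = 0.97), miR-30d-3p (r = 0.95) and miR-1839-5p (r = 0.94). miR-21c had 7206, 9240, 5085, 5775 and 8761 CPM in PiZ mice 1 to 5, against 2156, 10800, 1958, 9440 and 9271 CPM in WT mice 1 to 5, with the same 2 libraries lowest. For miR-101b-3p the list was miR-21c (r = 0.95), miR-362-3p (r = 0.90), let-7a-1-3p with let-7c-2-3p (r = 0.88), miR-33-5p (r = 0.88) and miR-215-5p (r = 0.88). These r describe the 10 libraries, which they share along with depth and the low values of WT mice 1 and 3. Over the 8 mice without those, the closest to miR-101a-3p were miR-378b (r = 0.94), miR-15a-3p (r = 0.93), miR-103-3p (r = 0.93), miR-107-3p (r = 0.92) and miR-1291 (r = 0.90), and none of the first 5 was among them.

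Base composition moved with these libraries. miR-101a-3p has a GC content of 33.3%, and 7.51% of the 293 tested miRNAs with a RefSeq sequence are at or below it (median 45.8%). Against each miRNA's mean over the 10 mice, the median of 21 other miRNAs at or below 33.3% GC lay at log2 differences of 0.24 to 0.52 in PiZ mice. It lay at -1.68 in WT mouse 1, -1.44 in WT mouse 3 and 0.21 to 0.34 in the other WT mice. On the same scale miR-101a-3p was at -0.10 to 0.92 in PiZ mice, at -1.56 and -2.06 in WT mice 1 and 3, and at 0.50 to 0.64 in the other WT mice. Like the low-GC median, it was low in WT mice 1 and 3, and it lay below that median in WT mouse 3. miR-101a-5p, at 45.5% GC from the same hairpin, was at -0.19 and -0.66 in WT mice 1 and 3. miR-101b-3p, at 42.1% GC, was at -0.77 and -1.53 in these mice, and miR-101c, at 36.8% GC, at -0.96 and -1.55. Each of these members lies below the median GC content of 45.8%. Across the 293 miRNAs, Pearson's r of GC content with the log2 difference was 0.61 in WT mouse 1 and 0.42 in WT mouse 3. It was -0.26 to -0.14 in PiZ mice and -0.20 to -0.18 in the other WT mice. The part of GC content in the genotype comparison was not tested.

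**Figure D4:**
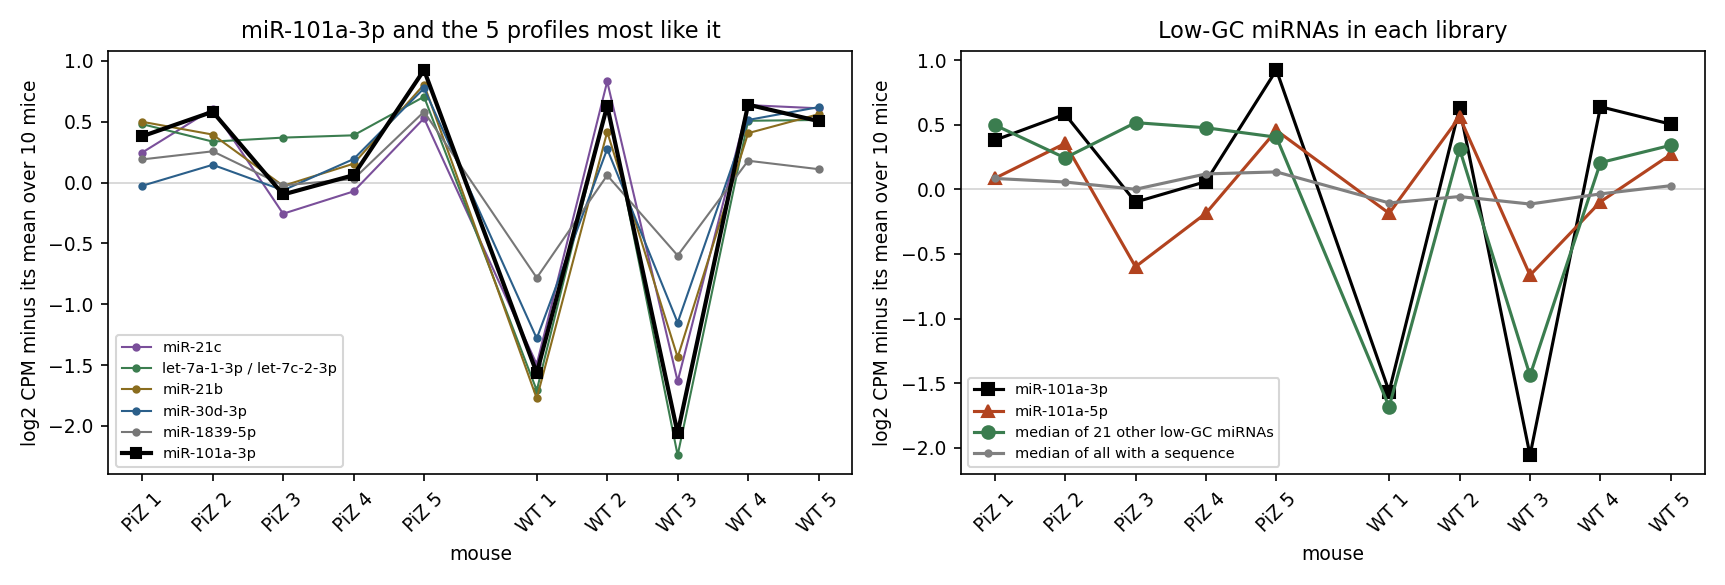
Log2 CPM minus its mean over 10 mice (vertical axes) in each mouse (horizontal axes), for miR-101a-3p with the 5 miRNAs most like it (left) and for miR-101a-3p, miR-101a-5p, the median of 21 other low-GC miRNAs and the median of all miRNAs with a sequence (right; prior count of 2). In WT mice 1 and 3 miR-101a-3p lies at -1.56 and -2.06 and the low-GC median at -1.68 and -1.44, while miR-101a-5p lies at -0.19 and -0.66.

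A miRNA outside the family shares bases 2 to 7 with miR-101a-3p and another with miR-101b-3p, while base 8 differs in each. Their RefSeq sequences, of the same build, are shown with bases 2 to 8 in capitals.
miR-144-3p: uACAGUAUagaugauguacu
miR-582-5p: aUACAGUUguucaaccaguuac
Bases 2 to 7 of miR-144-3p, an erythroid miRNA, are those of miR-101a-3p, and bases 2 to 7 of miR-582-5p are those of miR-101b-3p as annotated. The match of miR-582-5p was looked up after the sequences were seen and with its values known. miR-144-3p stood at 50.8, 24.8, 124, 75.3 and 27.3 CPM in PiZ mice 1 to 5, against 7.81, 10.96, 2.80, 26.2 and 58.9 CPM in WT mice 1 to 5. The groups overlapped through WT mice 4 and 5, and the log2 fold change was 1.53, SE 0.52 (adjusted p = 0.108, edgeR). miR-582-5p was at 1.91 to 12.2 CPM in PiZ mice and 0 to 1.52 CPM in WT mice, without overlap in these values. It rose by a log2 fold change of 2.96, SE 0.65 (adjusted p = 0.0185, edgeR). It had 0 reads in WT mice 1 and 3. By the limit of 3 reads, these allow levels up to 2.29 and 1.97, before TMM scaling. The limit of WT mouse 1 lies above the 1.91 CPM of PiZ mouse 5, so the lack of overlap is not established. In edgeR, no miRNA was called without WT mice 1 and 3 or in the shorter-list files alone. Of the miRNAs with these seeds, miR-101a-3p was the most abundant, with a lowest level of 980.0 CPM in PiZ and 252 CPM in WT mice.

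Other miRNAs known to repress EZH2 were described beside the family. Of 5 on the list 4 were tested, 0 were called in edgeR and 1 had a positive log2 fold change, with a median of -0.21, while over all 336 tested miRNAs 178 (53%) were positive with a median of 0.06. miR-26a-5p, the most abundant, averaged 44836 ± 5716 CPM in PiZ and 60511 ± 1373 CPM in WT livers (SD, n = 5 each; log2 fold change -0.43, adjusted p = 0.117, edgeR). miR-26b-5p averaged 4576 ± 492 CPM in PiZ and 5884 ± 1163 CPM in WT livers (SD, n = 5 each; log2 fold change -0.37, adjusted p = 0.249, edgeR). Neither passed, and the list's summed level was 42786 to 58851 CPM in PiZ mice and 65864 to 66949 CPM in WT mice, a sum that miR-26a-5p dominates.

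Among 12 miRNAs known, like miR-101, to be low in human liver cancer, all were tested, 0 were called in edgeR and 4 had a positive log2 fold change (median -0.22), beside 9.23% called and 53% positive over all tested miRNAs. The most abundant were miR-26a-5p and miR-122-5p. miR-122-5p, the main hepatocyte miRNA, averaged 9519 ± 1727 CPM in PiZ and 13002 ± 1121 CPM in WT livers (SD, n = 5 each; log2 fold change -0.48, adjusted p = 0.118, edgeR). The lists share miR-26a-5p and are not independent.

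Markers of liver cell types, none of which was at 0 in all mice, were set beside the family, and edgeR called 0 members of each list, beside 9.23% called and 53% positive over all tested miRNAs. All 5 hepatocyte markers were tested and 3 were positive, with a median log2 fold change of 0.05. The markers did not move together, with log2 fold changes from -0.48 to 1.34. Of the most abundant, miR-122-5p was at -0.48 (adjusted p = 0.118, edgeR) and miR-192-5p at 0.10 (adjusted p = 0.922, edgeR). In sum, these markers gave the following levels. The summed level of the 5 hepatocyte markers was 122325 to 250751 CPM in PiZ mice and 62376 to 239151 CPM in WT mice. The lowest values, 62376 and 86763 CPM, were in WT mice 1 and 3. This sum is mostly miR-192-5p, which averaged 151765 ± 45434 CPM in PiZ and 137239 ± 78495 CPM in WT livers (SD, n = 5 each). miR-122-5p was at 13505 and 11963 CPM in WT mice 1 and 3, inside the 11677 to 14256 CPM of the other WT mice. Both endothelial markers, arms of miR-126a, had a median of 0.07 and summed to 23375 to 28821 CPM in PiZ mice and 7843 to 41310 CPM in WT mice, again lowest in WT mice 1 and 3. The 5 mesenchymal markers had 3 positive, a median of 0.14 and sums of 9882 to 14794 CPM in PiZ mice and 5732 to 16871 CPM in WT mice, lowest in the same mice.

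Of 5 immune markers, 4 were positive with a median of 0.77 and sums of 1672 to 2634 CPM in PiZ mice and 625 to 1892 CPM in WT mice, WT mice 1 and 3 being at 688 and 625 CPM. All 4 erythroid markers were positive, the joined row of miR-486-5p and miR-3107-5p being the most abundant, with a median of 1.34 and sums of 311 to 1752 CPM in PiZ mice and 259 to 1072 CPM in WT mice. WT mouse 1 had the highest sum of the WT mice, while miR-144-3p and miR-144-5p, at 7.81 and 2.84 CPM, were second lowest there among WT mice. The 5 biliary markers were all positive, with a median of 0.49 and sums of 179 to 316 CPM in PiZ mice and 190 to 281 CPM in WT mice, and WT mouse 3 was the highest WT mouse. The part of cell composition in the levels of the miR-101 family was not tested.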

How the data were processed

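Livers were frozen, miRNA-enriched total RNA was extracted with the miRNeasy kit, and TruSeq small RNA libraries were made, per the labels' protocols. Per mature miRNA, the authors deposited an estimated count, in part not whole, for each of 20 runs. The submitters' processing notes name CASAVA. No source used here gives the aligner, the release of miRBase, the genome build or how multiply matching reads were counted. Runs of a mouse were summed and rounded.

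The 880 miRNAs listed in every file were filtered with filterByExpr (336 kept), scaled by TMM and tested in edgeR 4.0.16 (quasi-likelihood F-test on file list and genotype, Benjamini-Hochberg adjustment over all tested miRNAs, threshold 0.05). The SE was taken as the absolute log2 fold change over the root of F. The family row was summed with the scaling factors of the table of separate rows. Arm ratios used limma 3.58.1 with a pseudocount of 0.5 and a mean of at least 20 reads per arm. Shares and correlations used scipy 1.17.1 (100000 permutations for correlations). Alternatives used DESeq2 1.42.0 in R 4.3.3, and figures matplotlib 3.10.9. The edgeR fits of genotype and of the file set difference, and the arm comparison, were tested on simulated counts.

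Sequences are from RefSeq by miRNA name, found for 5 of 5 members, and gene overlaps from GENCODE M21. The rule for miRNAs that may be named took the members, the 5 nearest profiles of each main member, the 2 most abundant and every called member of each list, seed relatives, and miR-122-5p. Members and lists were chosen with earlier results of these data known.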

Additional observations from a re-analysis of the deposited data

How the results depend on the processing

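Between PiZ and WT, no member was called under any of the alternatives run with edgeR, DESeq2 or limma-voom, and adjusted p for miR-101a-3p ranged from 0.317 to 0.995 over 22 alternatives. Its log2 fold change of 0.39 turned to -0.24 without WT mice 1 and 3, to -0.25 in the shorter-list files alone, and ranged from -0.012 to 0.80 with each mouse left out. The summed family (0.38) did likewise, at -0.25 in both of these settings and -0.019 to 0.78 with each mouse left out. It was 0.23 (adjusted p = 0.804, edgeR) when TMM was recomputed on the table with the summed row, an alternative added after seeing the data, where the scaling's own base library changed. miR-101b-3p (0.04) turned to -0.13 with upper-quartile scaling, -0.080 without the filter, -0.0052 with run 1 alone, -0.31 in the shorter-list files and -0.43 without WT mice 1 and 3, and ranged from -0.38 to 0.34 with each mouse left out. miR-101a-5p (0.02) turned to -0.024 with DESeq2 size factors, -0.14 with upper-quartile scaling, -0.095 without the filter, -0.044 in DESeq2, -0.051 in limma-voom, -0.17 with run 2 alone, -0.20 in the shorter-list files and -0.27 without WT mice 1 and 3, and ranged from -0.29 to 0.17 with each mouse left out. miR-101c (-0.16) turned to 0.063 with run 2 alone and 0.037 in the longer-list files, and ranged from -0.51 to 0.19. The family share difference of 0.0354 points turned to -0.0151 in the shorter-list files and -0.0108 without WT mice 1 and 3. The paralog share difference of -0.234 points passed with run 1 alone (-0.213, exact permutation p = 0.0397) and without WT mouse 4 (-0.309, exact permutation p = 0.0317), and ranged from -0.309 to -0.149 with each mouse left out; with run 2 alone it was -0.283 (exact p = 0.516). The file set difference of miR-101a-3p ranged from -2.59 to -0.84 and passed without WT mouse 2 and in no other of 12 alternatives. The cause of these changes was not tested. Over all miRNAs, 31 calls became 83 without the filter, 50 in DESeq2, 7 in limma-voom, 18 with run 2 alone, and 0 in the shorter-list files as well as without WT mice 1 and 3. They became 9, 12, 17, 20 and 46 without PiZ mice 1 to 5 in turn, and 12, 10, 12, 5 and 8 without WT mice 1 to 5 in turn. miR-101b-5p was tested without the filter (0.04, adjusted p = 0.987, edgeR) and its arm balance with a minimum of 5 reads (0.32, adjusted p = 0.831, limma). No paired analysis was possible because the numbers mark separate animals in each genotype. In the shallowest library 3 reads are worth 2.29 per 1000000 reads, which limits miR-101b-3p, miR-101c and the 5p rows.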

Other observations

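Without WT mice 1 and 3, the profiles nearest to miR-101b-3p over 8 mice were miR-378a-5p (r = 0.94), miR-21c (r = 0.91), miR-378b (r = 0.89), miR-378c (r = 0.87) and miR-210-3p (r = 0.85), so miR-21c was in the first 5 with and without those mice. miR-378b was then among the 5 nearest to both main members. These are descriptions of 8 libraries.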
